A study of Drosophila virilis and Drosophila yakuba with 2 samples.

Results

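The genes of the dot chromosome, the smallest Drosophila chromosome and known as Muller element F, were described in female heads of 2 species. Members were taken by position: all 82 gene models placed on chromosome 4 of D. yakuba, of 16077 in that table, and all 93 on scaffold_13052 of D. virilis, of 14491. The rule itself uses no expression value. The flies were wild-type mated females, 2 to 5 days old, without any treatment. For each species total RNA from heads was made into 1 library. Each gene model has a single value in FPKM, which divides its fragments by the model's length in kilobases and by the library's total. With 1 library per species there is no replicate error, so no difference was tested, and species, annotation and library cannot be told apart.

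In D. melanogaster the dot chromosome is packaged largely as heterochromatin, with the protein HP1a and the histone methylation that go with gene silencing elsewhere, yet its genes are transcribed. A chromosome-specific protein, POF, binds these genes there. The D. virilis dot chromosome has been described as carrying much less of these marks. The element holds genes of many functions, including the Pax6 eye gene ey, the Hedgehog pathway transcription factor gene ci, and genes of translation and the mitochondrial ATP synthase.

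Photoreceptor genes lay between 62.9 and 8636 FPKM in virilis (4 found by symbol) and between 378 and 2177 FPKM in yakuba (3 found). Genes of the ovary and germline stayed between 0.0864 and 4.04 FPKM in virilis (5 found), and the single one found in yakuba was at 2.81 FPKM. Markers of other tissues were not all low. Gut genes lay between 10.4 and 46.3 FPKM in yakuba (3 found), beside 12.8 to 33.2 FPKM for neuron genes in virilis (2 found) and 24.5 FPKM in yakuba (1 found). Muscle genes lay between 464 and 1685 FPKM in virilis and between 136 and 605 FPKM in yakuba. The 1 fat body gene found in each species was at 215 FPKM in virilis and 39.2 FPKM in yakuba. Low values fell on steps of whole fragments, which gave library totals of about 70750000 fragments in virilis and 63000000 in yakuba, a ratio of 1.12. Totals near 2 times these values brought a somewhat larger share of low values onto whole steps (61.5% against 58.9% and 56.5% against 49.0%), so the totals are the smaller of 2 possible readings. At the smaller totals, 1 FPKM over 1 kb is 70.8 fragments in virilis and 63.0 in yakuba, so that the exact 95% Poisson interval of such a value runs from 0.781 to 1.26 in virilis and from 0.768 to 1.28 in yakuba. These intervals cover counting error only.

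Only a few members could be named, because the tables carry symbols for 2 virilis and 6 yakuba dot chromosome genes and systematic identifiers for the other 91 and 76. The gene for the beta subunit of the mitochondrial ATP synthase, ATPsyn-beta, carried its symbol on both sequences. The virilis scaffold also held ey. In the RefSeq gene table of D. virilis, ey shared its chromosome with ci, RpS3A and CaMKI and with ATPsyn-beta under the spelling ATPsynbeta, which makes 4 of the 6 symbols of yakuba chromosome 4. The label of scaffold_13052 as the virilis dot chromosome rests on these few symbols, since 0 of the virilis identifiers matched that table.

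Most dot chromosome genes were expressed in both heads, more often than genes elsewhere, and at higher levels. Of the 93 virilis members, 82 (88.2%) reached 1 FPKM, the level taken here as expressed, against 71.1% of all genes of that table. Of the 82 yakuba members, 78 (95.1%) reached it, against 65.7% of all genes. At 10 FPKM or more the counts were 70 in virilis (75.3%, against 39.8% of all genes) and 70 in yakuba (85.4%, against 33.5%). At 100 FPKM or more they were 10.8% and 14.6%, against 5.03% and 3.94%. These shares do not take locus span into account, and shares at 1 FPKM within classes of span are given further below. From 10 to 20 kb the virilis share was 87.5%, no higher than the 88.1% of other genes of that span.

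Silent members included, virilis had a median of 23.8 FPKM and yakuba of 38.0 FPKM, beside 6.22 and 4.15 FPKM for the other genes. Expressed members had a median of 25.7 FPKM in virilis, with quartiles of 16.2 and 53.0 FPKM, against 11.8 FPKM for other expressed genes. The ratio was 2.18. Expressed members in yakuba had a median of 41.6 FPKM, against 10.2 FPKM for other expressed genes, a ratio of 4.07. On the log2(FPKM + 1) scale, the mean over all members lay 1.62 above the mean of other genes in virilis and 2.61 above it in yakuba.

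Ranked within its own library, the typical member stood at percentile 80.0 in virilis and 90.4 in yakuba. In yakuba 64 of the 82 members were in the top quartile of the library and 44 in the top 10%, and 6 were below the library median. In virilis 55 of the 93 were in the top quartile and 22 in the top 10%, and 19 were below the library median. Dot chromosome genes were 0.642% of virilis gene models and 1.52% of the summed FPKM, and 0.51% and 1.62% in yakuba. Much of that sum came from few genes, with the top 5 members holding 60.2% of it in virilis and 49.4% in yakuba.

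**Figure D1:**
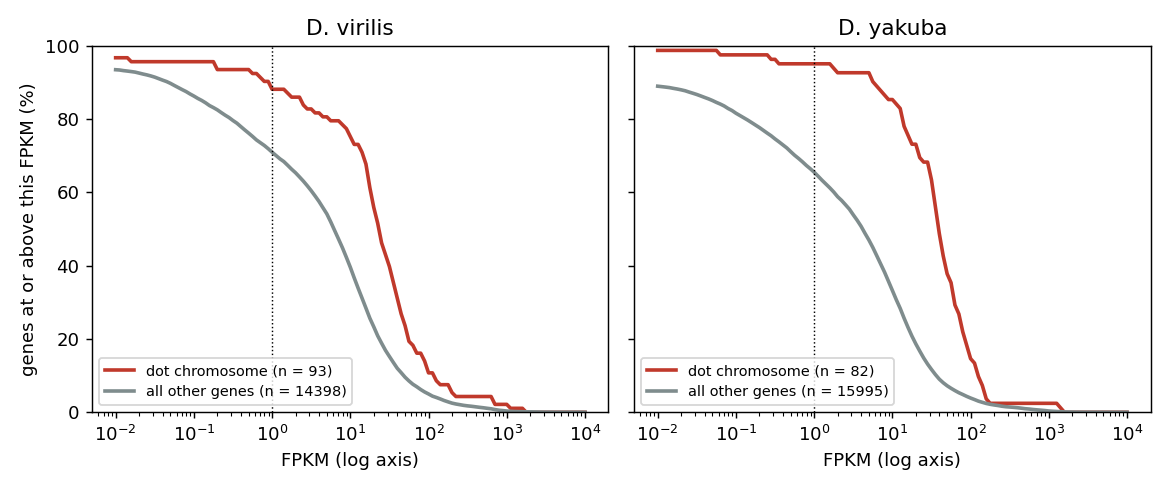
Share of genes (y axis, %) at or above each FPKM (x axis, log scale) for dot chromosome genes in red and all other genes of the same table in grey; the dotted line marks 1 FPKM. The red curve lies above the grey one at 1 FPKM in both species (88.2% against 71.0% in virilis, 95.1% against 65.5% in yakuba). In yakuba the curves approach each other above 100 FPKM, to 2.44% against 2.18% at 178 FPKM. They part again, to 2.44% against 0.34% at 1000 FPKM.

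The dot chromosome stood apart more at the low end of the expressed genes than at the high end. In virilis the ratio of the dot chromosome to other genes was 3.40 at the 10th percentile of expressed genes, 3.07 at the 25th, 1.98 at the 75th and 1.77 at the 90th. In yakuba it was 5.14, 4.79, 3.28 and 2.19 at the same percentiles. The middle of the distribution was narrower on the dot chromosome: the upper quartile of expressed genes was 3.27 times the lower in virilis and 3.57 times in yakuba, against 5.09 and 5.21 times for other genes. Over the whole range, the standard deviation of log2 FPKM of expressed genes was nearly the same in virilis, at 1.89 against 1.94. In yakuba it was 1.65 against 1.92. Levels from 30 to 100 FPKM held 41 of the 82 yakuba members, and 8.47% of other yakuba genes. In virilis the fullest classes were 10 to 30 FPKM with 31 members and 30 to 100 FPKM with 29.

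**Figure D2:**
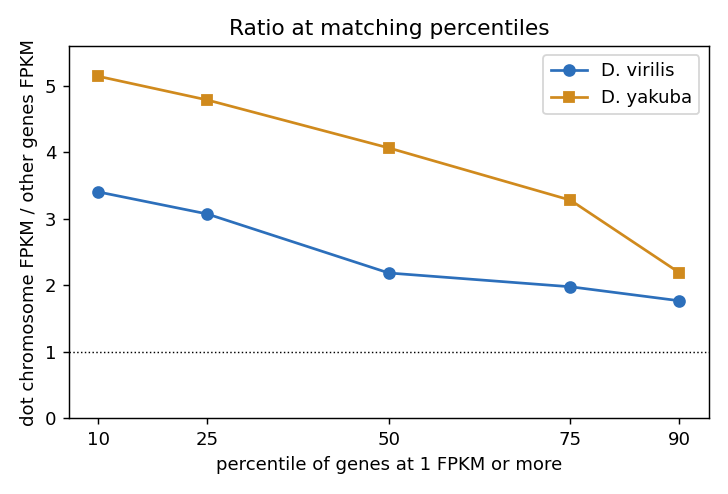
FPKM of the dot chromosome divided by FPKM of other genes (y axis) at the same percentile of expressed genes (x axis), for virilis (circles) and yakuba (squares); the dotted line marks equal levels. The ratio falls from 3.40 to 1.77 in virilis and from 5.14 to 2.19 in yakuba between the 10th and the 90th percentile.

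No other sequence with at least 50 genes had as high a median of expressed genes, among 21 such sequences in virilis and 7 in yakuba. The other virilis scaffolds ran from 8.10 to 19.4 FPKM. The large yakuba arms and X ran from 10.1 to 10.9 FPKM, and a sequence of 51 genes assigned to 2L but not placed on it had 25.1 FPKM over the 33.3% of its genes that were expressed. By the share of expressed genes chromosome 4 was highest in yakuba, where the next was X at 69.6%. In virilis scaffold_10322, with 51 genes, had a larger share (90.2%) than the dot chromosome, with a median of 17.8 FPKM.

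**Figure D3:**
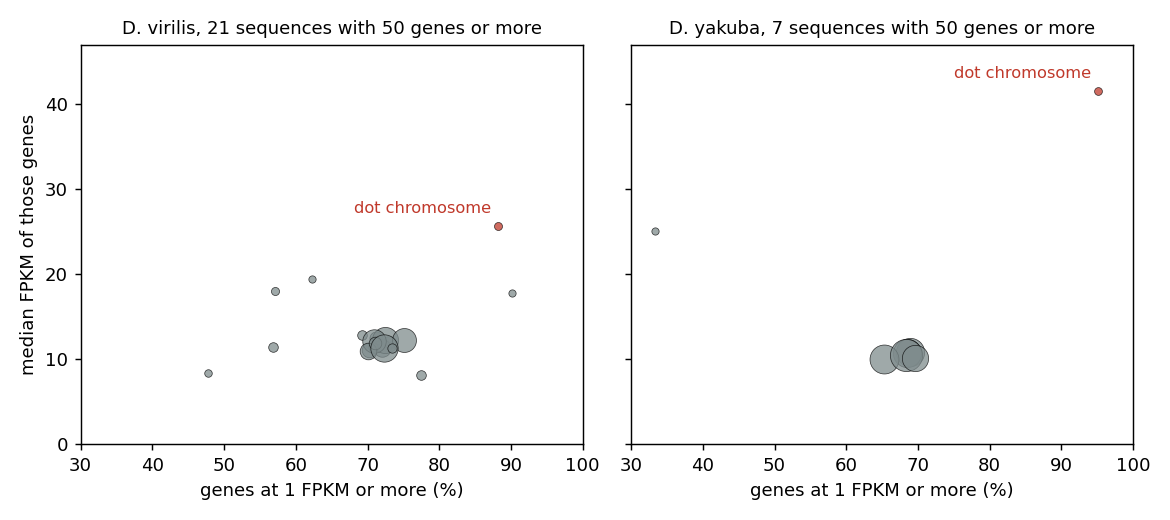
Each circle is a chromosome arm or scaffold with at least 50 genes; the x axis is the share of its genes at 1 FPKM or more (%), the y axis the median FPKM of those genes, and circle area grows with the number of genes. The dot chromosome (red) lies at 88.2% and 25.7 FPKM in virilis and at 95.1% and 41.6 FPKM in yakuba, above the medians of all other sequences shown.

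The highest members with a symbol were RpS3A in yakuba and ATPsyn-beta in both species. In yakuba, RpS3A, which encodes a protein of the small ribosomal subunit, was first at 1494 FPKM (FBgn0068049, chromosome 4, 54368 to 55262) and ranked 19th in the whole library. ATPsyn-beta followed at 1382 FPKM (FBgn0068543, 1130141 to 1132422) and ranked 26th. After these came a wide empty range, since the third highest, GE14490, was at 174 FPKM (FBgn0232094, 1136149 to 1147645). GE14517 was next at 157 FPKM (FBgn0232120, 379722 to 413271). Only RpS3A and ATPsyn-beta were above 1000 FPKM in yakuba.

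In virilis, ATPsyn-beta was the highest member at 1710 FPKM (FBgn0013912, scaffold_13052, 933483 to 935686), 21st in its library. In yakuba, as given above, it had 1382 FPKM, and its log2((FPKM + 1)/(FPKM + 1)) of virilis over yakuba was 0.31, or 0.51 relative to the median of the 52 same-symbol pairs expressed in both. It is the only member that could be paired between the species by symbol. GJ21872 followed at 1100 FPKM (FBgn0208989, 695487 to 696417). GJ13513 had 707 FPKM (FBgn0200737, 931651 to 932130), and a model at 964133 to 977224 had 703 FPKM. Unlike yakuba, virilis thus had members between 200 and 1000 FPKM. The ATPsyn-beta neighbourhood held 4 of the 6 highest virilis members within 5 consecutive genes: GJ13513 lay 1352 bp before ATPsyn-beta, and the next gene after it had 199 FPKM.

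The other members with a symbol spread widely in level. The transcription factor gene ci had 11.2 FPKM in yakuba (FBgn0022826, 34611 to 42091), 69th of the 82 members, though at percentile 69.0 of its library. The eye selector gene ey had 12.7 FPKM in virilis (FBgn0028754, 1510973 to 1531034), 68th of the 93 members and at percentile 66.0 of its library. Both of these transcription factor genes stood below the median of their own chromosome and above that of the whole table. The signalling gene CaMKI, which encodes a calcium- and calmodulin-dependent protein kinase, was number 5 among the yakuba members at 152 FPKM (FBgn0068180, 517587 to 525100). The small GTPase gene Arf102F had 72.1 FPKM (FBgn0068532, 1227996 to 1228797), and anon-EST:fe2D9 had 20.1 FPKM (FBgn0022409, 1306754 to 1318451).

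Silent and low genes were few, and most of them lay in small groups in virilis. In yakuba 4 members were under 1 FPKM (4.88%, against 34.3% of all genes), and they are all named here, 2 of them chosen after their values were seen. GE14565, a long model of 11910 bp, was listed at 0 (FBgn0232163, 1166615 to 1178524). A listed 0 can also be a failed estimate in tables without counts. GE14534, the first model on the sequence, had 0.0586 FPKM (FBgn0232134, 283 to 4902). GE14538 and GE14539, 56 bp apart, had 0.336 and 0.269 FPKM (181897 to 182211 and 182268 to 183224). No yakuba member fell between these and 1.71 FPKM, so the expressed count was the same at 0.5 FPKM.

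In virilis 11 members were under 1 FPKM (11.8%, against 28.9% of all genes), and 5 of them were between 0.5 and 1 FPKM. The 2 listed at 0, GJ21551 (FBgn0208671, 727333 to 727578) and GJ15172 (FBgn0202369, 1428260 to 1428427), were short models of 246 and 168 bp. Listed zeros made up 2.15% of virilis and 1.22% of yakuba members, against 6.16% and 10.6% of all genes. A run of 3 neighbours from 849762 to 885035 had 0.933, 0.537 and 0.197 FPKM. The far end of the scaffold, from 1846069 to 1984441, held 4 models, 3 of them low and the highest at 1.55 FPKM. Among them were the lowest values above 0 on the chromosome, 0.0147 and 0.00516 FPKM, which are below the 0.0424 FPKM that 3 fragments over 1 kb give. These 2 models span 2616 and 6174 bp, introns included, so the value for 1 kb is only a rough guide to them. Of the 11 low genes, 6 were next to another low gene. Within the dot chromosomes low genes were shorter than expressed ones, with median spans of 2616 against 5573 bp in virilis and 2789 against 6857 bp in yakuba. Low and expressed genes elsewhere also differed in this way, at 1094 against 1870 bp and 993 against 1778 bp.

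Levels were above those of other genes along most of both sequences. Exceptions in virilis lay at the far end of the scaffold and also inside it. The last 5 virilis genes, from 1761915 to 1984441, had 5.10, 0.648, 0.0147, 0.00516 and 1.55 FPKM, all under the 6.22 FPKM median of other genes. In yakuba, the median of 10 consecutive genes never fell below that of all other genes (4.15 FPKM): it ran from 14.4 FPKM at 181897 to 318618 to 74.2 FPKM at 1130141 to 1268228. Window medians were taken on the log2(FPKM + 1) scale and turned back to FPKM. In virilis 1 of the 84 such windows fell below the median of other genes, at 5.67 FPKM from 760205 to 885035. Its 2 middle values were 3.23 and 9.50 FPKM. It lay below 6.22 FPKM only because their midpoint was taken on the log2 scale. The highest virilis window, at 48.0 FPKM, was close by at 723980 to 810839. With windows of 5 genes, 8 of 89 virilis windows were below the median of other genes, the lowest at 0.648 FPKM from 1753428 to 1964976, and 0 of 78 yakuba windows were. Cut by gene order into 4 blocks of 20 to 24 genes, the yakuba medians were 29.4, 55.0, 33.4 and 38.0 FPKM. The virilis medians were 32.2, 23.8, 18.6 and 18.6 FPKM. Every block was thus above the other genes of its table, and the highest block was less than 2 times the lowest in both species. Which end of either sequence lies towards the centromere was not analysed here.

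**Figure D4:**
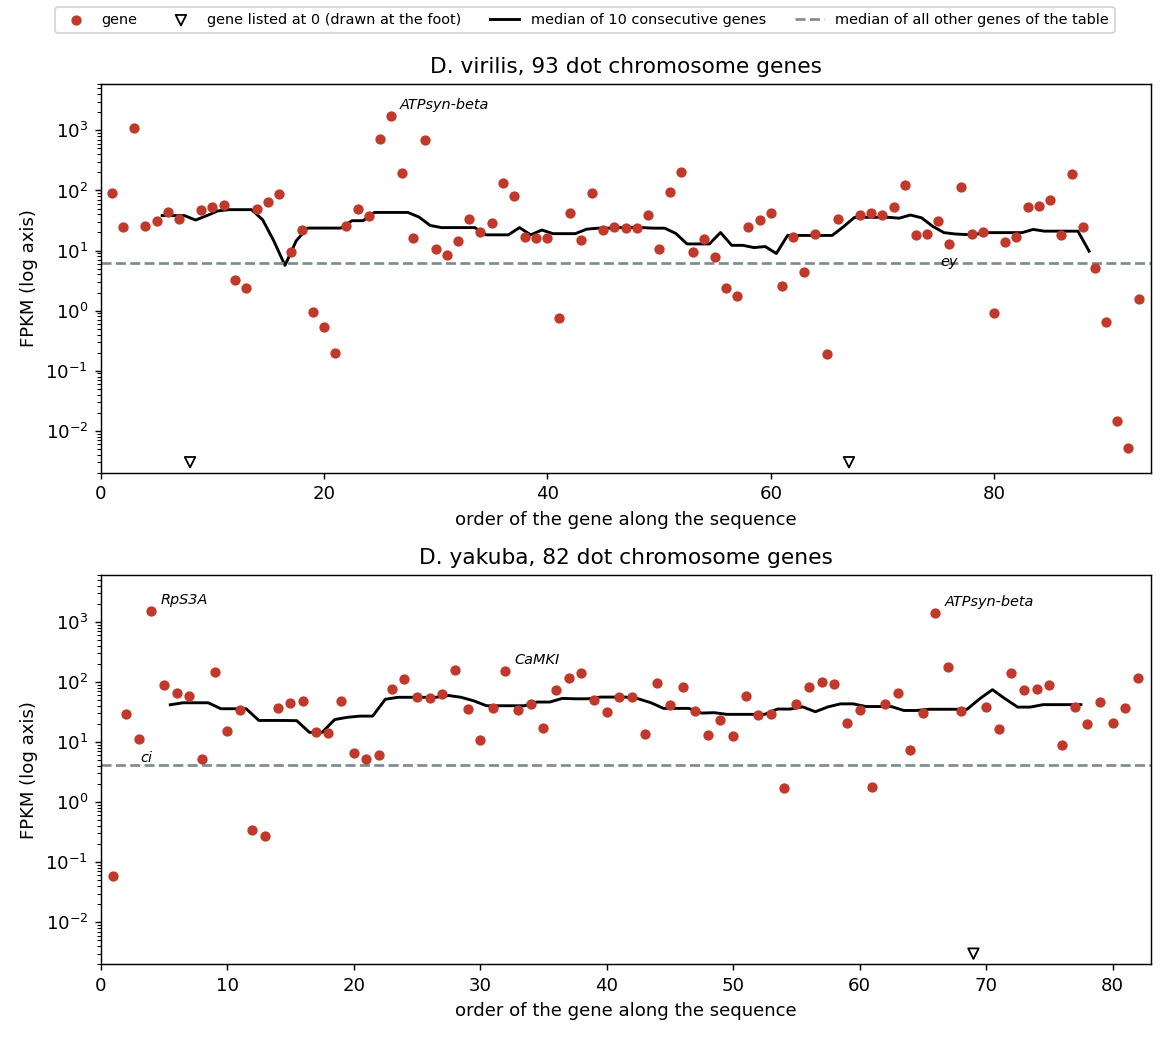
FPKM (y axis, log scale) of each dot chromosome gene in its order along the sequence (x axis). The black line is the median of 10 consecutive genes, taken on the log2(FPKM + 1) scale and turned back to FPKM. The dashed line is the median of all other genes, and triangles are genes listed at 0. The black line stays above the dashed one throughout yakuba and in all but 1 virilis window, and the lowest virilis values above 0 sit at the right end.

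Neighbouring genes on the dot chromosome resembled each other weakly in level. As a description across genes, which are not independent replicates, the Spearman rho of a gene's level with that of the next gene was 0.27 on the virilis dot chromosome (92 pairs of neighbours) and 0.23 to 0.34 on the large scaffolds. In yakuba it was 0.17 on chromosome 4 (81 pairs) and 0.31 to 0.37 on the other arms. Whether these differ was not tested.

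Dot chromosome genes spanned more of the genome than others. The median span from start to end of a model, introns included, was 5271 bp in virilis and 6632 bp in yakuba, against 1587 and 1464 bp for other genes. Spans of 5 kb or more were 51.6% and 59.8% of members, against 17.8% and 14.6% of other genes. Genes were also farther apart. The median distance to the next gene was 3887 bp in virilis and 6031 bp in yakuba, against 1348 to 2514 bp on the large virilis scaffolds and 1109 to 1778 bp on the other yakuba arms. In yakuba chromosome 4 had 59.8 genes per Mb, against 110.4 to 132.3 on the other arms, and gene loci covered 56.0% of it from the first to the last gene, against 42.2% to 44.7%. The first virilis model used here starts at 582996, far from the beginning of the scaffold, so its density and coverage depend on where counting starts. From the first to the last gene it had 66.4 genes per Mb, against 73.9 to 114.8 on the large scaffolds, and 53.0% coverage, against 35.9% to 43.1%. Counted from base 1 to the last gene, it had 46.9 genes per Mb and 37.5% coverage, which is within the 35.9% to 43.1% of the large scaffolds counted likewise.

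Dot chromosome medians were also higher than those of other genes within each class of locus span, in both species. Among expressed virilis genes the ratio of dot chromosome to other medians was 4.74 under 1 kb (9 members), 3.49 from 1 to 2 kb (9), 2.45 from 2 to 5 kb (20), 1.38 from 5 to 10 kb (22), 2.40 from 10 to 20 kb (14) and 2.46 at 20 kb or more (8). Among expressed yakuba genes it was 1.90 (6), 1.63 (5), 4.89 (19), 2.71 (23), 3.96 (16) and 4.13 (9) in the same classes. The middle of the 6 ratios was 2.45 in virilis and 3.34 in yakuba, beside the 2.18 and 4.07 without classes. The classes with the smallest ratio thus differed, at 5 to 10 kb in virilis and under 2 kb in yakuba, where few members fall. All 8 virilis and all 9 yakuba members of 20 kb or more reached 1 FPKM, shares within about 1 gene of the 88.7% and 88.4% of other genes of that span. Their medians were 38.6 and 58.8 FPKM, against 15.7 and 14.2 FPKM for the expressed others.

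**Figure D5:**
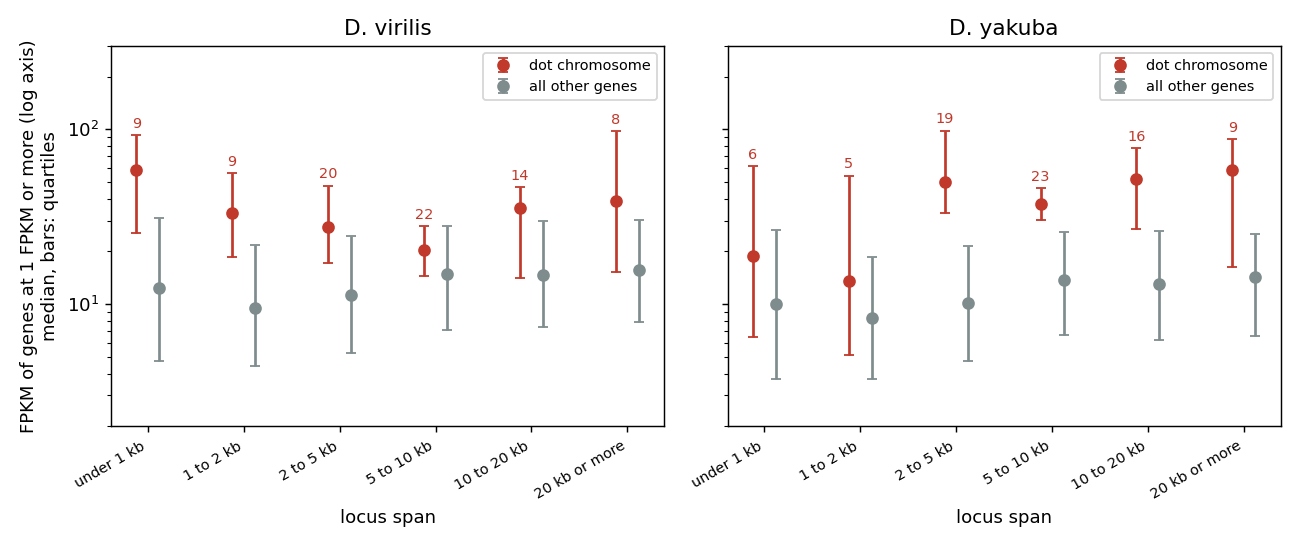
Median FPKM (y axis, log scale; bars are the quartiles) of genes at 1 FPKM or more by locus span class (x axis), for dot chromosome genes in red, with their number above the bar, and all other genes in grey. The red median is above the grey one in all 6 classes of both species, least so at 5 to 10 kb in virilis (20.4 against 14.8 FPKM).

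Within the dot chromosome, level and span were weakly related at most. Spearman's rho across genes was -0.01 in virilis (93 genes) and 0.16 in yakuba (82 genes), against 0.22 and 0.27 among the other genes of each table. Among expressed genes it was -0.14 and 0.12 on the dot chromosome, against 0.05 and 0.07 elsewhere, so the order of the yakuba values changed with the filter. The spans include introns, whereas FPKM is set by transcribed model length, which the tables do not give.

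A few members overlapped others, so their values are uncertain. The library kit keeps strand, but whether strand was used in assigning fragments is not stated in any source used here. In yakuba 2 models lay inside a long one at 273666 to 318618. The long model had 6.58 FPKM, and the inner ones had 5.16 and 6.17 FPKM. In virilis a model at 1400862 to 1401822, at 2.58 FPKM, lay inside another at 42.6 FPKM. A further virilis pair overlapped in part: a model at 699320 to 699948, at 25.6 FPKM, and one starting at 699794, at 31.4 FPKM. Of the 5 virilis models under 500 bp, which spanned 168 to 480 bp beside an estimated fragment length of 160 bp, 2 were listed at 0 and 3 were high, at 48.5, 58.4 and 707 FPKM. The one at 58.4 FPKM began 47 bp after a model at 53.2 FPKM. The one at 48.5 FPKM began 147 bp after a model at 25.8 FPKM.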

How the data were processed

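Total RNA of dissected heads went into 1 stranded library per species, per the labels' protocols. For each library the authors' deposited table lists FPKM by gene model, per the file headers. The submitters' processing notes name TopHat and Cufflinks. Tool versions, genome builds and annotations are not stated in the sources used here, so coordinates are those of the deposited tables. FPKM divides by model length, so incomplete models shift values.

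All models were kept. Starts were counted from 0 in the tables, as 66.8% and 67.6% of spans under 900 bp were then multiples of 3, and are given counted from 1. The totals came from a search up to 100000000 fragments for the total and fragment length that brought most values under 0.12 FPKM within 0.04 of a whole number (58.9% and 49.0%). In that search the length of a model was its span less the fragment length. This choice matters most for short models, and division by the full span was not tried. Simulated data checked the scripts (Python 3.11.15, pandas 2.3.3, SciPy 1.17.1). Members and lists were chosen with earlier results of these data known. Named are all members with a symbol and, among the others, the 2 highest and 2 lowest of each species. A few more were named after their values were seen. Gene names came from the tables, and RefSeq (Dvir_AGI_RSII-ME) was used only for neighbours of ey. Alternatives varied the threshold, filters, pseudocount, comparison set and window.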

Additional observations from a re-analysis of the deposited data

How the results depend on the processing

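The ratios of medians stayed above 1 and the differences of mean log2 values above 0 under every alternative run for them. Locus spans, distances between genes and percentiles were not varied. The ratio of medians was 3.83 in virilis and 9.16 in yakuba with no filter on low values, and 2.74 in yakuba with a threshold of 5 FPKM. The difference of mean log2 values was 2.09 in virilis and 3.39 in yakuba with a pseudocount of 0.1 FPKM, and 1.13 and 1.82 with 5 FPKM. The highest window median, taken on the log2(FPKM + 1) scale and turned back, was 8.47 times the lowest in virilis with windows of 10 genes. In yakuba it was 5.14 times the lowest. In virilis and yakuba it was 2.62 and 2.44 times with windows of 20 genes, and 1085 and 12.5 times with windows of 5 genes. The share of expressed members ran from 80.6% to 93.5% in virilis and from 92.7% to 96.3% in yakuba. Their median ran from 24.7 to 31.4 FPKM in virilis and from 41.6 to 42.7 FPKM in yakuba. With no filter on low values, the median over all members was 23.8 and 38.0 FPKM. With the comparison limited to the large scaffolds or to 2L, 2R, 3L and 3R, the ratios of medians were 2.17 and 3.94. Level and span had a rho of -0.01 in virilis and 0.16 in yakuba over all members, and -0.14 and 0.12 over expressed members. No paired analysis was possible because each species has a single library. The depth limits values near 0.04 FPKM and below, which stand for a few fragments per kb.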
